A study of Homo sapiens with 2 samples.

Results

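The Krüppel-like factors are transcription factors, and 10 of their genes were followed here in gastric cancer cells with and without extra LINC01133, a long non-coding RNA: KLF2, KLF3, KLF4, KLF5, KLF6, KLF7, KLF9, KLF10, KLF11 and KLF13. They were chosen by symbol, and all 10 were matched to an identifier among the 28303 genes with a value. RNA selected by its poly(A) tail was sequenced from the established human line HGC27, derived from a gastric cancer, at passage 4 to 6 in both groups. The control cells had received the pcDNA3.1 plasmid without an insert and the others pcDNA3.1 carrying LINC01133, in each case 48 h before harvest. Each group held 1 library, so no difference below has a replicate check and none was tested. The sources used here do not give the share of cells that took up the plasmid, and the values are averages over each culture, in which fewer cells expressing a gene and less RNA per cell cannot be told apart.

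Krüppel-like factors share a block of C2H2 zinc fingers at the end of the protein, which binds GC boxes and CACCC boxes in promoters. The remainder of the protein differs between members and recruits either coactivators or corepressors, so that some members mainly activate and others mainly repress. In the lining of the gut, KLF4 is known for marking cells that have stopped dividing and KLF5 for marking dividing cells. KLF2 has been described as a gene that LINC01133 can repress in other cancer cells together with the chromatin enzymes EZH2 and KDM1A.

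Values are FPKM, fragments divided by exon length and by the library total, so genes of unlike length can be compared within a library. They are not corrected for GC content, which limits orders and shares among genes of unlike GC content. Ratios between the libraries moved with the scaling and with GC content, as given below. The control library held 15666629 counted fragments and the overexpression library 16302581. Intervals are 95% exact intervals from 1 library per group and cover counting error only. Fragments amplified without molecular identifiers are not independent molecules, so even for counting error the intervals can be too narrow. LINC01133 itself had 0.0809 FPKM (4 fragments) in control cells and 1.44 FPKM (74 fragments) with its plasmid. Of the 8 gastric epithelial markers with a value, 0 reached a mean FPKM of 1, CDH1 was at 0.0207 and 0.00993, and KRT18, MUC5AC and TFF2 were listed at 0 in both libraries. Of 9 fibroblast and mesenchymal markers 8 reached it, with a summed FPKM of 465 and 464, and of 3 endothelial markers 0 did. Both libraries thus held RNA of mesenchymal markers, and hardly any of gastric epithelial ones.

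All 10 Krüppel-like factor genes were expressed at low to moderate levels, and none differed between the libraries by as much as 2-fold in FPKM + 1. The count of members at least 2-fold higher was 0 of 10, where 11.9% of the 11945 genes whose FPKM averaged 1 or more were. The count at least 2-fold lower was also 0, where 0.444% of those genes were. At 1.5-fold the members higher were 3, KLF3, KLF5 and KLF9, against a background of 26.8%, and 0 were lower, against 5.29%. For 6 members the counting interval of the FPKM ratio as deposited lay above 1, namely KLF3, KLF5, KLF6, KLF7, KLF9 and KLF10, and it did so for 42.6% of all genes with an interval. The interval lay below 1 for 0 members and for 32.2% of all genes. Both counts moved under other scalings, given with their backgrounds further on. The counts at 2-fold and 1.5-fold are near these backgrounds and are no result about the family. The median log2 ratio of FPKM + 1, overexpression over control, was 0.37 over the members and 0.10 over all genes. The added 1 makes the ratios of low genes look smaller than they are in FPKM.

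**Figure D1:**
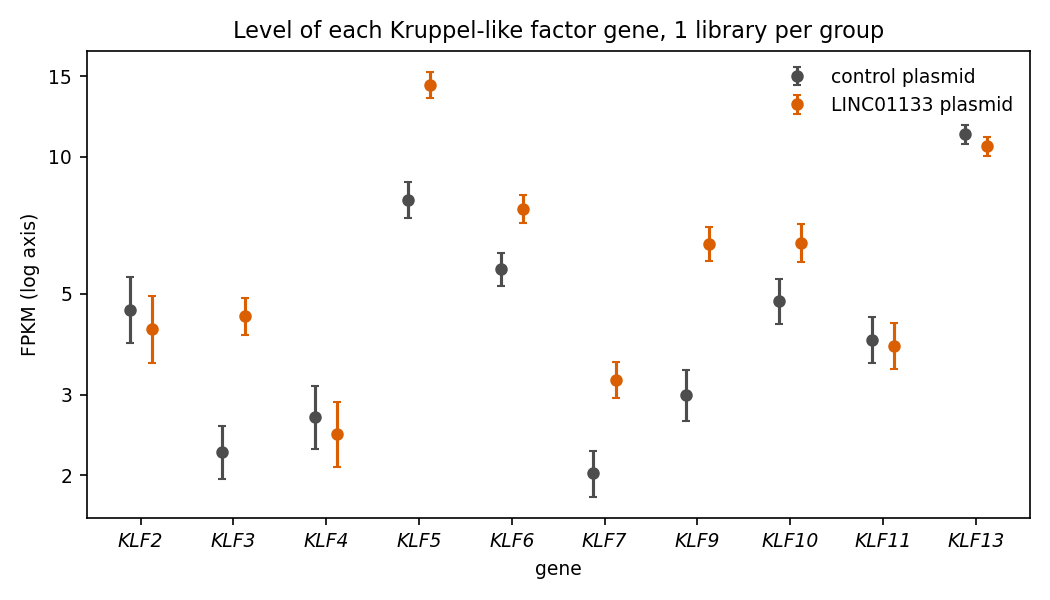
FPKM of the 10 genes on a log axis in the control library (grey) and the LINC01133 library (orange), 1 library each, with 95% exact Poisson counting intervals. KLF5 lies highest in the LINC01133 library at 14.4 and KLF13 highest in the control at 11.2, while the intervals of KLF2, KLF4, KLF11 and KLF13 overlap between the libraries.

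KLF2 and KLF4, which restrain growth and inflammation in many cell types, were slightly lower in the overexpression library as deposited. KLF2, at 16324817 to 16327874 of chromosome 19 (GRCh38, plus strand), had 4.62 FPKM (3.90 to 5.43) in control cells and 4.19 FPKM (3.52 to 4.96) with LINC01133, from 146 and 138 fragments. Its ratio was 0.908 with an interval of 0.715 to 1.15, which includes 1. KLF4, at 107484852 to 107490482 of chromosome 9 (minus strand), had FPKM values of 2.69 (2.28 to 3.15) and 2.46 (2.08 to 2.90). Its ratio was 0.917 (0.727 to 1.16), from 154 and 147 fragments. As deposited, both differences were smaller than the counting error. By the upper quartile the ratio intervals were 0.534 to 0.862 for KLF2 and 0.543 to 0.865 for KLF4, below 1, while with trends on GC content and length subtracted both genes lay above 0.

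KLF2 and KLF4 are known to be switched on through the kinases MAP3K3, MAP2K5 and MAPK7 and the transcription factors of the MEF2 family. Their promoter windows from RefSeq (GRCh38.p14, 250 bases before to 50 after the start of transcription) are shown because both hold GC boxes and 1 of them a MEF2 match, while the ratios between the libraries were alike. Capitals mark GC boxes, with the letters GGGCGG, boxes with the letters CACCC, and the MEF2 consensus. Each was searched on both strands, so a box can also appear as its reverse complement, and neighbouring boxes can overlap. The windows are chr19:16324576-16324875 on the plus strand for KLF2 and chr9:107489720-107490019 on the minus strand for KLF4.
KLF2: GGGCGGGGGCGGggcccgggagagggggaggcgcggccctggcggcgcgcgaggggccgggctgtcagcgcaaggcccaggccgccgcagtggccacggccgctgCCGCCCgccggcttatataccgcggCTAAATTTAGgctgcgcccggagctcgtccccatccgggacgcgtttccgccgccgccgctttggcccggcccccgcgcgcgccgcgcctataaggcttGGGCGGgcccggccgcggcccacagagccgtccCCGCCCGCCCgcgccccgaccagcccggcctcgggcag
KLF4: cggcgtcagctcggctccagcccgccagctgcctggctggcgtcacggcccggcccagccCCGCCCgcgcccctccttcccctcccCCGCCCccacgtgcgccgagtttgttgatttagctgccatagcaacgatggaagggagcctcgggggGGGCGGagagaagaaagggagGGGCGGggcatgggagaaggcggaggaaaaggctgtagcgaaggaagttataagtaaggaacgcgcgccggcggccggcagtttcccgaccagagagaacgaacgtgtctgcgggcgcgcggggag
The KLF2 window holds 6 GC boxes, some overlapping, and 1 match to the MEF2 consensus that begins 120 bases before the start, CTAAATTTAG. The consensus was found in 2.99% of the 35116 promoter windows of the same length and in 1 of 13 windows of the members. The KLF4 window holds 4 GC boxes and no match to the consensus. A match describes the letters of the window and is not evidence of binding in these cells.

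KLF5, an activator known from dividing epithelial cells, was the member with the largest gain in level. The gene lies at 73054976 to 73077542 of chromosome 13 (plus strand). Control cells had 8.03 FPKM (7.34 to 8.78) and cells with LINC01133 14.4 FPKM (13.5 to 15.3), from 490 and 912 fragments. The intervals of the libraries do not overlap. The ratio was 1.79 (1.60 to 2.0), or 0.77 as a log2 ratio of FPKM + 1. KLF5 made up 16.7% of the summed FPKM of the 10 members in control cells and 22.6% with LINC01133.

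KLF6 and KLF7, activators of the same branch of the family, were higher by smaller ratios. KLF6, at 3775996 to 3785281 of chromosome 10 (minus strand), had FPKM values of 5.66 (5.19 to 6.15) and 7.67 (7.14 to 8.24), a ratio of 1.36 (1.21 to 1.52). KLF7, at 207074137 to 207167267 of chromosome 2 (minus strand), had the lowest level of all members in the control. Its FPKM was 2.02 (1.80 to 2.26) and 3.24 (2.96 to 3.54), a ratio of 1.60 (1.39 to 1.86), from 293 and 489 fragments.

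KLF3, a repressor that works through the corepressors CTBP1 and CTBP2, was at nearly 2-fold the level in FPKM. The gene lies at 38664196 to 38701042 of chromosome 4 (plus strand). Control cells had 2.25 FPKM (1.96 to 2.57) and cells with LINC01133 4.46 FPKM (4.06 to 4.89). The ratio was 1.98 (1.69 to 2.34), or 0.75 as a log2 ratio of FPKM + 1. The antisense gene KLF3-AS1 overlaps 4.22% of the exon bases of KLF3 and had 2 and 10 fragments, against 222 and 458 for KLF3.

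KLF9, KLF10, KLF11 and KLF13 are members that can repress transcription through the SIN3 corepressor, and their values went apart. KLF9, a gene induced by glucocorticoid and thyroid hormones, had the largest ratio of the 10. It lies at 70384597 to 70414624 of chromosome 9 (minus strand). It had 243 fragments in control cells and 542 with LINC01133, or FPKM values of 2.997 (2.63 to 3.40) and 6.42 (5.89 to 6.99). The ratio came to 2.14 (1.84 to 2.504) in FPKM and 0.89 as a log2 ratio of FPKM + 1, under 2-fold on that scale.

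KLF10 and KLF11, both known as early genes of TGF-beta signalling, did not move alike. KLF10 had an FPKM of 4.82 (4.29 to 5.39) and 6.47 (5.86 to 7.11), a ratio of 1.34 (1.16 to 1.56). KLF11, at 10042849 to 10054836 of chromosome 2 (plus strand), had 3.96 (3.52 to 4.45) and 3.85 (3.42 to 4.32), a ratio of 0.971 (0.822 to 1.15). The interval of KLF11 includes 1 as deposited, though not under 3 other scalings. Its upper bound as deposited, 1.148, lies just under the lower bound of KLF10, 1.156. An antisense gene, not analysed here, shares 9.06% of the exon bases of KLF11, so fragments from that stretch are uncertain.

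KLF13, a broadly expressed member, had the most fragments of all, 1650 in control cells and 1616 with LINC01133. It lies at 31326855 to 31435665 of chromosome 15 (plus strand). Its FPKM was 11.2 (10.7 to 11.8) and 10.5 (10.0 to 11.1), and the interval of the ratio, 0.941 (0.878 to 1.01), includes 1 as deposited and lies below 1 under each of 3 other scalings. KLF13 took 23.2% of the summed FPKM of the members in control cells and 16.6% with LINC01133, while the sum itself was 48.2 and 63.7.

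The order of the levels differed between the libraries at the top. These levels are not corrected for GC content, which is 57.6% for KLF13 and 47.0% for KLF5. Genes of like GC content had median log2 ratios of -0.31 for KLF13 and 0.21 for KLF5. In the control KLF13 was above KLF5, KLF5 above KLF6, and KLF11 above KLF9 with intervals that do not overlap. Each other pair of neighbours in the control order, KLF6, KLF10, KLF2 and KLF11, then KLF9, KLF4, KLF3 and KLF7, had intervals that overlap. In the overexpression library KLF5 was above KLF13, KLF13 above KLF6 and KLF6 above KLF10, with intervals apart. KLF10 and KLF9 overlapped, KLF9 was above KLF3, and KLF3, KLF2, KLF11 and KLF7 overlapped from one to the next. KLF4 was lowest, with an interval under that of KLF7. KLF9 went from the seventh place to the fifth and KLF3 from the ninth to the sixth.

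The differences among the members went in part with the GC content of their transcripts, as they did over all genes. GC content is that of the longest coding transcript, which need not be the one these cells use. The 6 members with a higher value in the overexpression library had GC contents of 41.5% (KLF3), 43.8% (KLF7), 45.9% (KLF6), 46.3% (KLF9), 47.0% (KLF5) and 47.2% (KLF10). The 4 others had 46.8% (KLF11), 55.0% (KLF4), 57.6% (KLF13) and 65.2% (KLF2). Members of nearly the same GC content still differed: KLF9, KLF11, KLF5 and KLF10, at 46.3% to 47.2%, had log2 ratios from -0.03 to 0.89. Between GC content and log2 ratio, Spearman's rho was -0.733 over the 10 members and -0.801 over 11913 genes. All points of these correlations come from the same pair of libraries.

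Set against genes of like GC content, the members took different places. KLF5, KLF9 and, with less certainty, KLF2 stood above the median of genes within 1 percentage point of their own GC content. The median log2 ratio of those genes was 0.21 for KLF5, 0.25 for KLF9 and -0.42 for KLF2, and the members themselves were at 0.77, 0.89 and -0.11. KLF3, KLF7 and KLF6 lay close to such genes, with medians of 0.72, 0.49 and 0.29 against their own 0.75, 0.49 and 0.38. KLF11 lay below the median of such genes, at -0.03 against 0.22. KLF4 (-0.09 against -0.23), KLF13 (-0.08 against -0.31) and KLF10 (0.36 against 0.19) lay above by smaller amounts. The place of KLF2 rests on 146 and 138 fragments, with a ratio interval of 0.715 to 1.15 as deposited.

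With trends on GC content and transcript length subtracted, 9 of 10 members had a log2 ratio above 0, where 62% of all genes did. As deposited 6 of 10 members and 55.4% of all genes did. After subtraction the median of all genes was 0.08, so a value just above 0 can lie at or below the median gene. KLF9 was at 0.66 (percentile 94.7 of all genes past the filter), KLF5 at 0.63 (percentile 93.97) and KLF2 at 0.42 (percentile 85.8). No counting interval was computed after subtraction, and KLF2 rests on 146 and 138 fragments. KLF2, KLF4 and KLF13 turned from below 0 to above it, KLF4 to 0.23 and KLF13 to 0.24. KLF3 and KLF7 came to 0.09 and 0.02 (percentiles 50.8 and 41.2), KLF6 to 0.13 and KLF10 to 0.24. KLF11 went to -0.20 (percentile 14.8) and was the 1 member below 0. At 1.5-fold, KLF5 and KLF9 were still higher and 0 members lower, where 7.16% of genes were higher and 2.87% lower. At 2-fold 0 members were higher or lower, where 1.64% of genes were higher and 0.797% lower.

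**Figure D2:**
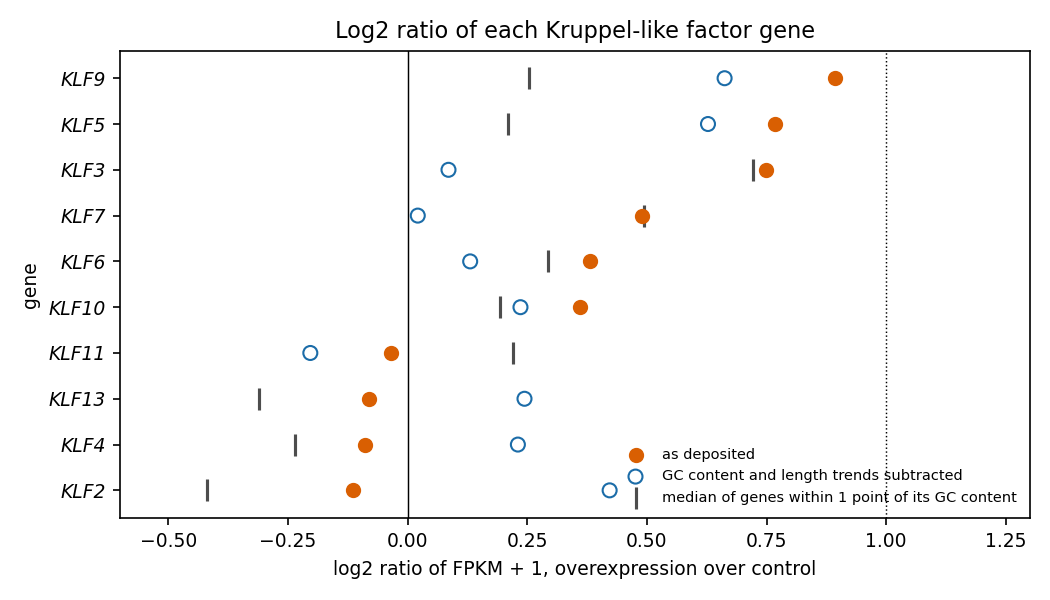
Log2 ratio of FPKM + 1 for each gene as deposited (filled), with trends on GC content and length subtracted (open), and the median of all genes within 1 percentage point of its GC content (bars). The dotted line is 2-fold. KLF9 and KLF5 remain at 0.66 and 0.63 after subtraction, KLF3 and KLF7 drop to 0.09 and 0.02, and KLF2 moves from -0.11 to 0.42.

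**Figure D3:**
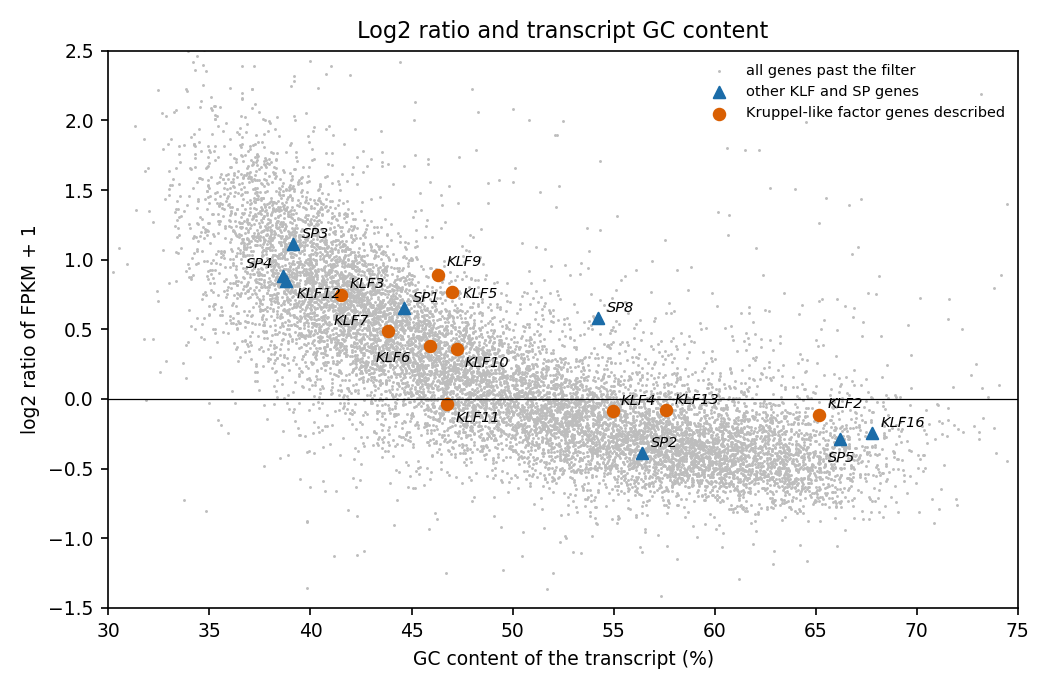
Log2 ratio of FPKM + 1 against transcript GC content for 11913 genes (grey), the 10 Krüppel-like factor genes described (orange) and 8 other KLF and SP genes (blue triangles). 63 genes lie outside the plotted range. KLF9 and KLF5 lie toward the upper side of the band of genes near 46% to 47% GC, and KLF11 lies toward its lower side.

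Other scalings lowered the log2 ratios of all members together. By median of ratios and by trimmed means of M values (TMM) all log2 ratios of FPKM shift by 0.21, and by the upper quartile by 0.42, toward lower values in the overexpression library. The same 6 members were above 0 and the same 4 below 0 under each of these scalings, where 46.5%, 46.2% and 38.5% of all genes were above 0 in that order. KLF10 and KLF6 came nearest to 0 by the upper quartile, at 0.00 and 0.02, and KLF9 stayed the highest at 0.55. The calls by counting interval moved more. By median of ratios the same 6 members had an interval above 1 (34.7% of all genes did) and KLF11 and KLF13 one below 1 (42.4%). By TMM 5 were above, without KLF10 (34.4%), and KLF2, KLF4, KLF11 and KLF13 were below (42.7%). By the upper quartile KLF3, KLF5, KLF7 and KLF9 were above (27.7%) and the same 4 as by TMM below (51%). KLF3, KLF5, KLF7 and KLF9 thus had an interval above 1 as deposited and under these 3 scalings, with lower bounds by the upper quartile of 1.26, 1.196, 1.04 and 1.37.

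The promoters of KLF5 and KLF9, the members with the largest values after subtraction, are shown. KLF5 has windows at 2 starts, chr13:73054726-73055025 and chr13:73058755-73059054 on the plus strand, and which of them these cells use was not measured. The KLF9 window is chr9:70414608-70414907 on the minus strand, and capitals are as above.
KLF5, first start: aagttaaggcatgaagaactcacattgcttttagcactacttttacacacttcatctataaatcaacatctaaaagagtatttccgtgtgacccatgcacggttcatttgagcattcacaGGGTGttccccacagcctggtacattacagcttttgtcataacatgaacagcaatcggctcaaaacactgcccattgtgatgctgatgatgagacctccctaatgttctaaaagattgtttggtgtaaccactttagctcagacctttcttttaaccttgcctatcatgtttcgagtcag
KLF5, second start: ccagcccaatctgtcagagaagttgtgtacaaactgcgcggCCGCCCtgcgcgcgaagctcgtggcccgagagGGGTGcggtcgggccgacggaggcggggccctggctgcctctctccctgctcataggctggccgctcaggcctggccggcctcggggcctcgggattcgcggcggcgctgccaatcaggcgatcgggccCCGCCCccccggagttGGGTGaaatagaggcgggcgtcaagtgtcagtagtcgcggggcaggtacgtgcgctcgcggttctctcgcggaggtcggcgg
KLF9: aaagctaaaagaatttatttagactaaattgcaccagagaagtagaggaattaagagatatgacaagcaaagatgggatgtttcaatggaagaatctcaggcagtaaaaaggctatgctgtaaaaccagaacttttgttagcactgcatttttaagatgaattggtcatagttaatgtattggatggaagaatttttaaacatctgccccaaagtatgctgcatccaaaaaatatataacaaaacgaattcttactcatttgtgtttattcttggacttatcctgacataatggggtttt
The first KLF5 window has a GC content of 40.7% with 4 CpG dinucleotides, 0 GC boxes and 1 CACCC box, and the second 71.3% with 37 CpG, 2 GC boxes and 2 CACCC boxes. The KLF9 window has 32.7% GC and 1 CpG, with none of the boxes marked and 2 CCAAT boxes on either strand. The median over all windows is a GC content of 58.7% and 14 CpG. Of 13 windows searched, 8 hold a GC box, 7 a CACCC box and 6 a CCAAT box. These windows cover 8 of the members, without KLF3 and KLF10, and KLF5, KLF7 and KLF11 count more than once. Among all windows 44.95% hold a GC box, 59.9% a CACCC box and 34.6% a CCAAT box. The KLF9 window is nearer to the first KLF5 window than to the second in GC content, CpG and the lack of GC boxes. In CCAAT boxes it is nearer to the second, with 2 in each and 0 in the first. The first KLF5 window also holds 1 TATA box (TATAAA), which the KLF9 window and the second KLF5 window lack. Low GC content without GC boxes is not particular to these genes: KLF7 windows with 43.0% and 42.7% GC, and 5 and 7 CpG, also lack GC boxes. The other KLF7 windows have 56.7% and 70.0% GC.

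LINC01133 has been described as a sponge of microRNAs, and miR-145-5p is known for acting on KLF4 and KLF5. MicroRNAs were not measured here. The mature miR-145-5p from RefSeq (GRCh38.p14, chr5:149430661-149430683, plus strand) is shown with its seed, bases 2 to 8, in capitals, above the stretches of the members' 3′ UTRs that hold a match to that seed, in capitals as DNA.
miR-145-5p: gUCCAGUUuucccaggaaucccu
KLF5: agaaaaccacaactaaAACTGGAaat
KLF11: ggcccttcttttagtaAACTGGAcat
KLF13: cttttatttaaaaatgAACTGGAtgg
The stretches lie at chr13:73075982-73076007, chr2:10052982-10053007 and chr15:31376895-31376920 on GRCh38, all on the plus strand. A match was found in 3 of 10 members and in 13.8% of the 3′ UTRs of 16024 genes, and the 3′ UTR of the longest KLF4 transcript held none of these 7 letters. That share was not matched for 3′ UTR length, which was 5600 bases for KLF13. The site of KLF5 is followed by an A, those of KLF11 and KLF13 by other bases. Of the 3 genes KLF5 was higher, while the intervals of KLF11 and KLF13 included a ratio of 1 as deposited. KLF3, KLF6, KLF7, KLF9 and KLF10, which held no match, were also higher. Whether the microRNA bears on any of these values was not tested.

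The other genes of the family and the related SP factors, which bind the same boxes, also held higher and lower genes. Of 14 with a value, 8 reached a mean FPKM of 1, of which 5 had a log2 ratio above 0 and 3 below. Over all genes past the filter 55.4% were above 0 and 11.9% at least 2-fold higher. Among these 8 family genes SP3 was the 1 at least 2-fold higher in FPKM + 1, with 3.82 and 9.42 FPKM and a ratio of 2.47 (2.25 to 2.71). SP4 had 2.55 and 5.54 FPKM and KLF12, a CTBP-binding repressor like KLF3, had 1.502 and 3.49. SP1, the broadly expressed founding member, had 12.9 and 20.8, a ratio of 1.62 (1.52 to 1.72). With the trends subtracted, SP3, SP1, SP4 and KLF12 were at 0.21, 0.26, -0.07 and -0.10.

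SP8, a factor of limb and brain development, had 16.2 and 24.7 FPKM at a GC content of 54.2%, and its log2 ratio of 0.58 became 0.85 with the trends subtracted. KLF16, the highest of all KLF genes with a value, had 25.6 and 21.4 FPKM, a ratio of 0.836 (0.768 to 0.910). SP2 had 15.2 and 11.4, and SP5 had 3.59 and 2.77, a ratio of 0.770 whose interval of 0.580 to 1.02 includes 1. KLF16 and SP5 turned to 0.24 and 0.25 with the trends subtracted, and SP2 to -0.03. KLF8 and KLF17 had 0 fragments in the control and 3 and 0 in the overexpression library. KLF1, KLF15 and KLF18 were not analysed here.

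Genes known to control the transcription of KLF2 and KLF4 held both higher and lower members. Among 15 past the filter 3 were higher by 2-fold or more, 0 lower, where 11.9% of all genes were 2-fold higher, and the median log2 ratio was 0.54 against 0.10 for all genes. With the trends subtracted 0 were 2-fold higher, and the median was 0.16 against 0.08. The Polycomb subunit SUZ12 had 3.50 and 14.3 FPKM (ratio 4.10, 3.65 to 4.61), the kinase MAP3K2 1.54 and 5.74, and KRIT1, which restrains MAP3K3 in endothelium, 2.03 and 5.24. PDCD10, a partner of KRIT1, had 4.64 and 9.96 (log2 ratio 0.96) and MEF2A 3.20 and 5.95 (0.73). With the trends subtracted SUZ12 was at 0.79 and the others between -0.09 and 0.16. The kinases named above had 6.23 and 5.39 FPKM (MAP3K3), 9.45 and 9.27 (MAP2K5) and 11.6 and 8.82 (MAPK7), and MEF2D had 12.8 and 9.89. Subtracting the trends put MAP3K3, MAP2K5 and MAPK7 above 0, at 0.15, 0.24 and 0.09, and MEF2D at -0.04. Of the chromatin enzymes EZH2 and KDM1A, the first had 16.4 and 24.3 FPKM and the second 41.6 and 43.0, and with the trends subtracted they were at 0.25 and 0.17.

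Corepressors and coactivators held both higher and lower genes. Among 15 past the filter, 0 reached 2-fold in either direction, where 11.9% of all genes were 2-fold higher and 0.444% lower. Their median was 0.05, against 0.10 for all genes. HDAC2 had 3.64 and 8.16 FPKM, NCOR1 5.42 and 9.597, and SAP30, a subunit of the SIN3 complex, 7.40 and 12.1, while HDAC3 had 18.7 and 14.6. With the trends subtracted SAP30 was at 0.91, NCOR1 at 0.38, HDAC2 at -0.02 and HDAC3 at -0.07.

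Ubiquitin ligases and deubiquitinases that act on KLF proteins had a median of 0.38 over 10 genes, with 2 at least 2-fold higher and 0 lower, where 11.9% of all genes were higher and the median of all genes was 0.10. With the trends subtracted 0 were 2-fold higher and the median was 0.18 against 0.08, and by the upper quartile it was 0.002 against -0.23. The higher ones were ITCH, a ligase of KLF10 (1.52 and 5.04 FPKM), and WWP1, a ligase of KLF2 and KLF5 (2.85 and 7.58). SMURF2 had 2.08 and 4.62, SIAH1 1.10 and 1.85 and BTRC 5.01 and 7.15. With the trends subtracted ITCH and WWP1 were at 0.35 and 0.24, SMURF2 at 0.54 and SIAH1 at -0.54.

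Reported target genes of KLF proteins had a median of 0.06 over 11 genes, with 1 at least 2-fold higher and 0 lower, again beside 11.9% and a median of 0.10 for all genes. That was the receptor TGFBR1, with 4.39 and 11.1 FPKM and a ratio of 2.52 (2.26 to 2.81). The cell cycle inhibitor CDKN1B had 20.4 and 29.5, and CDKN1A, a target shared by several members, had 26.3 and 19.3. L1CAM had 5.78 and 3.97 and ATF3 6.95 and 5.39. TGFBR1 was at 0.24, CDKN1B at 0.45, CDKN1A at 0.01, L1CAM at -0.06 and ATF3 at -0.15 with the trends subtracted. The median of the targets turned to -0.12 by median of ratios, -0.13 by TMM and -0.29 by the upper quartile, and that of the corepressors to -0.14, -0.15 and -0.34. These scalings move all genes together, and the median of all genes turned to -0.07, -0.07 and -0.23.

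**Figure D4:**
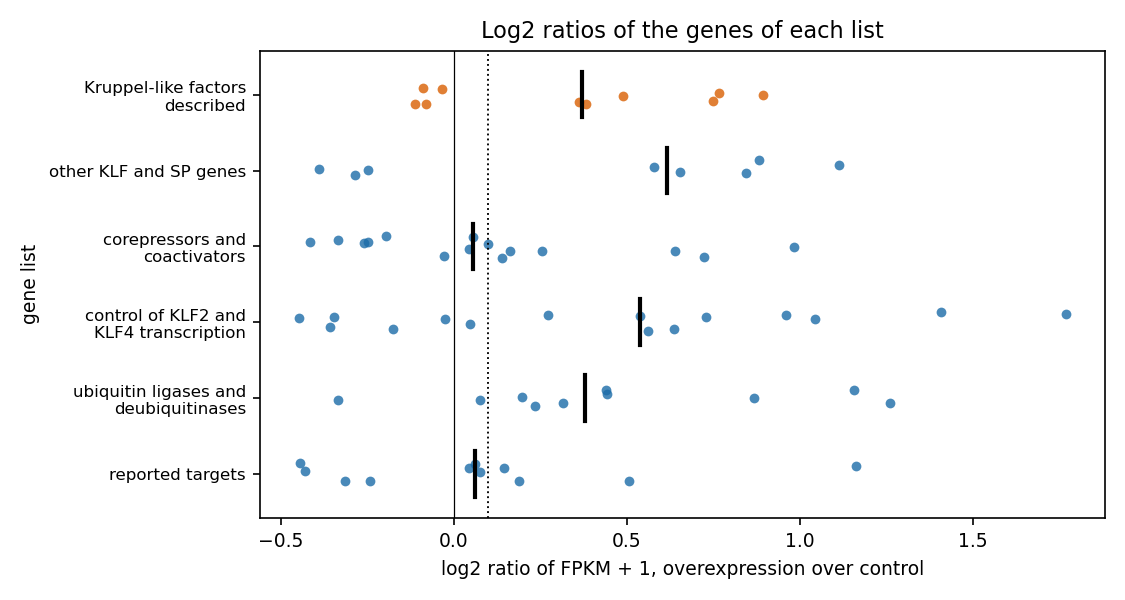
Log2 ratio of FPKM + 1 of each gene past the filter in 6 gene lists, with the median of each list (black bar) and of all genes (dotted line, 0.10). The 10 Krüppel-like factors (orange) fall into 4 genes just under 0 and 6 between 0.36 and 0.89.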

How the data were processed

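The submitters' processing notes name HTSeq 0.6.0, HISAT2 2.1.0, Bowtie2 2.2.3 and the build GRCh38; roles, annotation and strand setting are not given in the sources used here. The unit of the values the authors deposited is not named, and they were read as FPKM, fragments that the authors had scaled to exon length and library total. Multiplied by GENCODE 29 exon length they give whole fragments, within 0.02, for 94.5% (control) and 94.4% (overexpression) of genes with a length. This structure gave depths and fragments.

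Levels carry exact Poisson intervals and ratios Clopper-Pearson intervals of the conditional share. Genes averaging 1 FPKM or more were kept, and log2 ratios used a pseudocount of 1. No p-value was computed. GC content and length are those of the longest protein-coding transcript with a 3′ UTR, and lowess trends (span 0.3) were subtracted, keeping the overall median. The calculations, with Python 3.11.15, scipy 1.17.1 and statsmodels 0.14.6, were tested on simulated data. Alternatives were other scalings, filters, pseudocounts, fold thresholds and trends.

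The 10 genes and the lists were chosen with earlier results of these data known. Named were all 10 members, family genes averaging 1 FPKM or more, and up to 5 genes of each other list with the largest absolute log2 ratio. CDH1, KRT18, MUC5AC, TFF2, KLF8, KLF17, MAP3K3, MAP2K5, MAPK7, MEF2D, EZH2 and KDM1A were added after their values were seen. No genes were named for a like pattern, since 2 libraries give 1 ratio per gene. A description of the zinc fingers, the blood markers and 1 gene that this rule names are not reported here.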

Additional observations from a re-analysis of the deposited data

How the results depend on the processing

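No paired analysis was possible because there was a single library per group. The count of members at least 2-fold higher, 0, became 1 (KLF9) with a pseudocount of 0.1, 3 at 1.5-fold and 6 when a counting interval of the FPKM ratio above 1 was asked for. Of all genes 26.8% were higher at 1.5-fold and 42.6% had an interval above 1. The share with a pseudocount of 0.1 was not computed. The count of members was 0 with trends subtracted. It was also 0 under 3 other scalings, without a filter, at a mean FPKM of at least 5 and at 4-fold, where it could not rise: these scalings lower every ratio, all 10 members pass the filter, and a mean of 5 leaves 4 members, without KLF9. The count 2-fold lower was 0 under each alternative run. The count of members with an interval below 1, 0 as deposited, was 2 by median of ratios, 4 by trimmed means of M values and 4 by the upper quartile, while the count above 1, 6, was 6, 5 and 4; these were added after seeing the data. The median log2 ratio of the members, 0.37, was 0.19 by median of ratios, 0.19 by trimmed means of M values and 0.0104 by the upper quartile. The median of all genes, 0.10, fell with it, to -0.07, -0.07 and -0.23 in that order. The median of the members lay between 0.23 and 0.43 under the other alternatives, among them the GC content trend alone, an alternative chosen after seeing the data. No member whose interval left out 1 as deposited changed direction. Depth limits KLF2 and KLF4 most, with 138 to 154 fragments each. Where a value moved, the cause was not tested.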

Other observations

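Copies and neighbours of the members had few fragments. KLF2P1, a processed pseudogene on chromosome 2 (130036958 to 130038422), had 17 and 57 fragments, FPKM values of 1.04 and 3.36 and a ratio of 3.22 (1.85 to 5.91), while KLF2 had a ratio of 0.908. KLF2P4, another processed pseudogene on that chromosome (131299220 to 131300444), had 14 and 17 fragments. How fragments shared by a gene and its copies were treated was not given, so the values of both pseudogenes and of KLF2 itself are uncertain. KLF7-IT1, inside an intron of KLF7, had 1 and 0 fragments. SP7, a factor of bone formation under the filter, had 25 and 5 fragments, a ratio of 0.192 (0.0575 to 0.511), and was named after its values were seen.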
